A study of Mus musculus with 8 samples.

Results

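The response of the mouse left ventricle to pressure overload was examined as the part that 2 diets had in common. All 8 of the 8 libraries of the study entered the comparison: the 4 libraries from hearts after transverse aortic constriction (TAC), a surgical narrowing of the aorta against which the left ventricle must then pump, were set against the 4 from sham-operated hearts, and the TAC effects within each diet were averaged. The mice were male C57BL/6N, an inbred laboratory strain, aged 8 weeks when the study began, and polyadenylated RNA was taken from the left ventricle 4 weeks after the operation. A group consisted of 2 libraries: sham on the low fat SFA diet, sham on the SFA-EAA diet, TAC on SFA and TAC on SFA-EAA. In the SFA-EAA diet free essential amino acids stood in for 93.5% of the casein; the sources used here do not describe the surgery's grade of constriction or heart function, and only males were studied. Whether the pair in a group represents separate animals is not stated in the labels, so p-values below cover the spread between these libraries, which may be technical.

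A ventricle that works against a raised pressure grows by enlarging its muscle cells. This growth is known for a partial return of genes of the fetal heart, such as those of the natriuretic peptides and of slow myosin, for the laying down of collagen by fibroblasts, and for lower levels of transcripts for burning fatty acids. These 3 programmes are background knowledge, and the gene lists below were built around them.

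The sum of deposited values was 5136441 to 6298743 per library, with 14202 to 15844 genes at 1 or more. Library differences did not follow the operation alone. The share of mitochondrially encoded transcripts was 22.1% to 30.3% on SFA and 33.6% to 39.5% on SFA-EAA. With higher GC content, a gene's deviation from its mean went up in 5 libraries (Spearman's rho 0.34 to 0.52 across 10221 genes, which are not independent replicates), among them TAC SFA-EAA replicate 1. It went down in the other 3, all of them on SFA-EAA (rho -0.73 to -0.43). By rank correlation 4 of the 8 libraries were closest to a library of another group: sham SFA replicate 2 and TAC SFA-EAA replicate 1 to each other (0.981), TAC SFA replicate 1 to TAC SFA-EAA replicate 1 (0.978), and TAC SFA-EAA replicate 2 to sham SFA-EAA replicate 1 (0.979). The atrial light chain gene Myl7 reached 621 in replicate 1 of sham SFA and 322 in replicate 2 of TAC SFA, while 1.28 to 43.0 was seen elsewhere. Cardiomyocyte markers were present throughout, and their summed level was 247300 to 342400.

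Averaged over the diets, 227 genes were higher (1.38% of the 16432 tested) and 120 lower (0.73%) after TAC, by limma-trend on log2(value + 1) with a Benjamini-Hochberg adjusted p below 0.05. An unadjusted p below 0.05 was reached by 15.3% of genes. Of the 347 genes called, 346 had the same sign under both diets, against 59.2% of all genes tested, and the averaging itself favours such genes. The exception was Hopx, a homeodomain-only regulator of cardiac genes. In 340 of the 347 the TAC and sham libraries did not overlap within either diet: 221 of the higher genes (background 7.22% of all genes) and 119 of the lower ones (6.41%). All 4 TAC libraries lay above all 4 sham libraries for 163 of the 227 (background 3.73%) and below them for 81 of the 120 (2.75%). The calls were made from the same values, which favours such separation, so these counts only describe the genes called. The median log2 fold change of higher genes was 1.03, with 118 at 2-fold or more, and lower genes a median of -0.70, with 40 at 2-fold or more. The genes called were mostly well expressed: 7.23% of genes with a mean value over 500 were called, against 0.374% of those under 5.

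The number of calls changed when single libraries were left out. Leaving out a library also lowers the residual degrees of freedom, and the share of each in the change was not tested. With each library left out in turn, in the order sham SFA replicates 1 and 2, sham SFA-EAA replicates 1 and 2, TAC SFA replicates 1 and 2, and TAC SFA-EAA replicates 1 and 2, the genes called numbered 56, 43, 54, 29, 130, 24, 563 and 394. Series of 8 counts from leave-one-out fits below follow this order. All 347 genes kept their sign in each of these 8 fits, and 23 to 264 of them were still called. Where each library's trend with GC content was first taken out, 434 genes were higher (2.64%) and 612 lower (3.72%), so that higher genes made up 41.5% of calls in place of 65.4%. After that correction 224 of the 227 and all 120 were still called, and 263 to 346 of the 347 were still called when a library was also left out. Without both libraries high in Myl7 no gene was called, and 1397 reached an unadjusted p below 0.05; that fit had a single library in sham SFA and in TAC SFA.

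**Figure D1:**
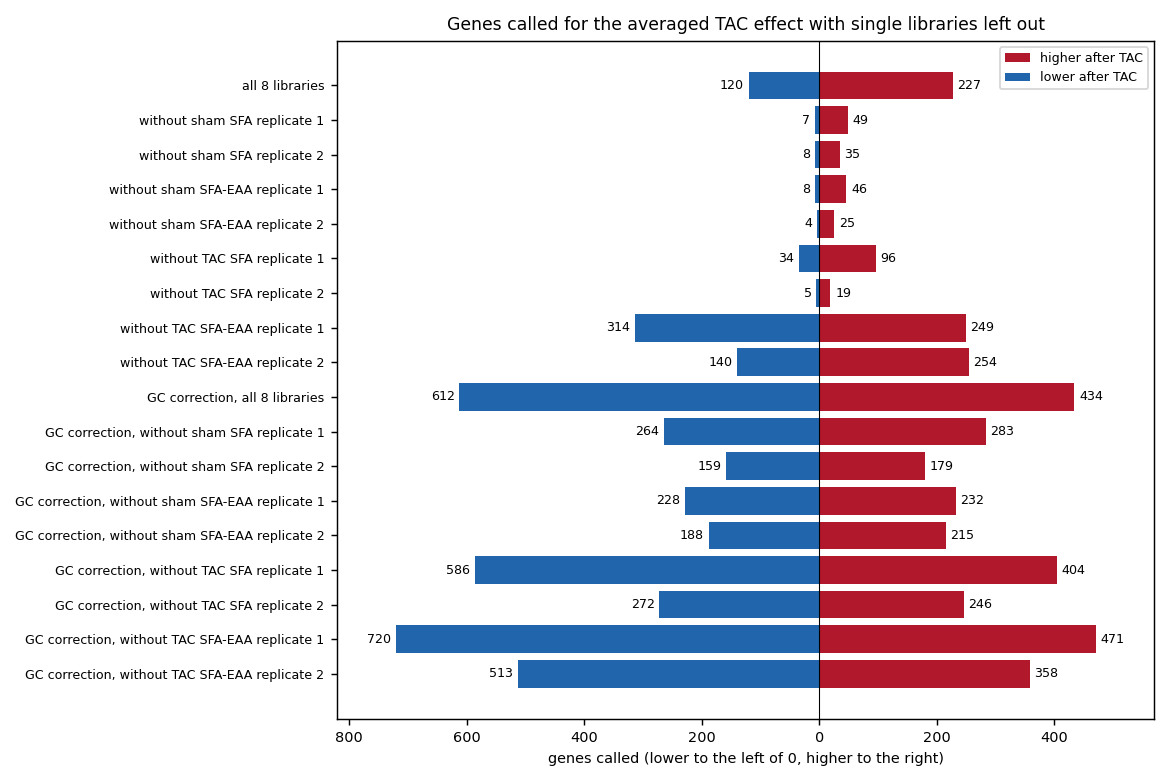
Horizontal bars show how many genes were called higher (red, right of 0) or lower (blue, left of 0) after TAC, averaged over the diets, with all 8 libraries and with each library left out, as deposited and after the correction for GC content. The bars for all 8 libraries show 227 higher and 120 lower genes, and the shortest, without TAC SFA replicate 2, 19 and 5.

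Whichever single library was left out, 20 genes stayed called, 17 higher and 3 lower. The higher ones were both natriuretic peptide genes Nppa and Nppb, the muscle genes Myh7, Acta1, Ankrd1, Xirp2 and Synpo2l, the matrix genes Col8a1, Ctgf, Mfap5 and Adamts2, the receptor gene Tnfrsf12a, the calcineurin regulator Rcan1, and Igfbp7, Uck2, Cpxm2 and Bdh1. The lower ones were Ces1d, Ano10 and 9030617O03Rik. These 20 were picked by this outcome, and no further test is given for them as a set.

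**Figure D2:**
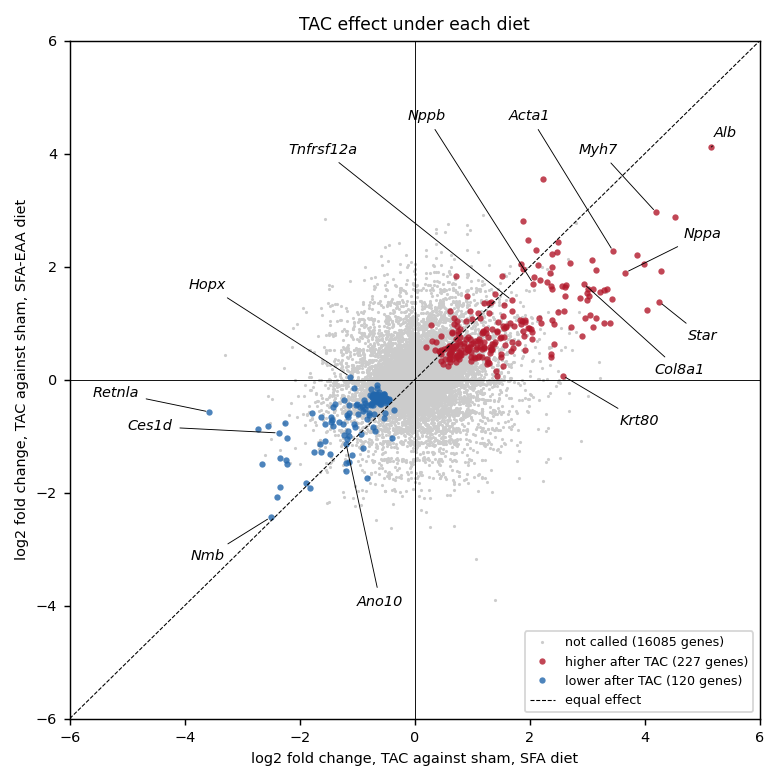
Each point is a gene, with its log2 fold change between TAC and sham under SFA on the horizontal axis and under SFA-EAA on the vertical axis; red and blue points are the 227 and 120 genes called higher and lower, and the dashed line marks equal effects. Hopx alone among the called genes lies on opposite sides of 0, and 187 of the red and 106 of the blue points have the smaller effect under SFA-EAA, as do 8982 of all 16432 genes.

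The 2 diets' libraries share no sample, and genes picked in one were looked up in the other. The spread was estimated from all 8 libraries, however, so genes with close SFA-EAA pairs were more readily picked. The look-up is therefore not independent, and the picking favours absence of overlap. Under SFA-EAA alone 2 of the 16432 genes tested were called (31 after the GC correction, where SFA gave 869). Under SFA alone 205 genes were called (1.25%). Of the 137 that rose there, 129 (94.2%) had a positive effect under SFA-EAA, where 50% of all genes tested did, and in 119 (86.9%) the SFA-EAA libraries did not overlap in that direction, against 18.5% of all genes. Of the 68 that fell, 62 (91.2%, all genes 49.8%) had a negative effect under SFA-EAA and 54 (79.4%, all genes 18.0%) did not overlap. Median log2 fold changes of these genes were 1.56 under SFA and 0.75 under SFA-EAA for the risers, and -0.99 and -0.41 for the fallers; the SFA values are those that picked them. Across all 16432 genes the correlation between the diets' effects was 0.26, and it was 0.45 across the 10232 genes with a mean of at least 20; genes are not independent replicates, and the libraries' base composition differs along the diets.

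Called genes had the smaller effect under SFA-EAA in 187 of the 227 higher (82.4%) and 106 of the 120 lower cases (88.3%), against 8982 of all 16432 genes tested (54.7%). The test of the difference between the diets (limma interaction) called 0 genes, with 902 (5.49%) at an unadjusted p below 0.05. After the GC correction it also called 0, except without TAC SFA replicate 1 (14 genes) and without TAC SFA-EAA replicate 2 (34 genes). Where a gene's effects under SFA and SFA-EAA are set side by side below, their difference therefore did not pass the test. Over all genes tested, 1.38% were called higher and 0.73% lower, and the counts called in each gene list below stand against these shares. Counts without overlap within both diets stand against 7.22% upward and 6.41% downward.

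Asked for each diet separately, 2 genes (0.0122%) passed the test in both: Nppb and Tnfrsf12a, each with an adjusted p of 0.039 by limma for the weaker of its diets. Leaving out any single library ended both of these calls. After the GC correction 16 genes passed in both diets: Nppb, Nppa, Tnfrsf12a, Myh7, Ankrd1, Xirp2, Synpo2l, Nrap, Abra, Col8a1, Postn, Fbn1, Adamts2, Pi16, Cpxm2 and Ano10, all but Ano10 higher. With a library left out as well this number lay between 2 and 17.

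Nppb encodes B-type natriuretic peptide, a hormone that stretched ventricles release and that lowers salt and volume load. The deposited coordinates place it on chromosome 4, 147985788 to 147987205, plus strand (GRCm38). Its values were 1022 and 1101 in sham SFA, 1122 and 942 in sham SFA-EAA, 4184 and 4697 in TAC SFA, and 2771 and 4019 in TAC SFA-EAA. All TAC libraries lay far above all sham libraries, whichever the diet. The averaged log2 fold change was 1.88 (SE 0.12, adjusted p = 0.00056), with 2.06 under SFA and 1.70 under SFA-EAA. Nppa, which encodes the atrial natriuretic peptide of the fetal ventricle, lay 13516 bases downstream on chromosome 4. Its values were 1299.5 and 1013 in sham SFA, 1025 and 1046 in sham SFA-EAA, 10346 and 20406 in TAC SFA, and 4437 and 3343 in TAC SFA-EAA. The sham libraries were close together, and the TAC SFA libraries stood above the TAC SFA-EAA libraries. The highest TAC value (TAC SFA replicate 2) and the highest sham value (sham SFA replicate 1) came from the 2 libraries high in Myl7. Summed atrial markers were also highest there, at 1708 and 2128. Without both libraries the averaged log2 fold change of Nppa was 2.62. The part of atrial transcripts in the Nppa values was not tested. The averaged log2 fold change of Nppa was 2.78 (SE 0.20, adjusted p = 0.00066), with 3.66 under SFA and 1.89 under SFA-EAA. Of the 11 genes on the list of natriuretic peptides, their processing enzymes and receptors, these 2 rose, none fell, and the list's median of 0.05 turned to -0.05 after the GC correction (all genes 0.01 and -0.03). Both were called with any single library left out. The processing enzyme gene Corin had -0.26 (adjusted p = 0.19), the receptor gene Npr1 -0.27 (adjusted p = 0.61) and the peptidase gene Mme -0.96 (adjusted p = 0.096), none past the test. After the GC correction Corin (adjusted p = 0.034) and Mme (adjusted p = 0.028) were lower.

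Tnfrsf12a encodes Fn14, the receptor of the cytokine TWEAK, and belongs to the list of Z-disc and mechanical stress genes (chromosome 17, 23675447 to 23677449, minus strand). Its values were 240.5 and 241 in sham SFA, 207 and 161 in sham SFA-EAA, 746 and 816 in TAC SFA, and 499.8 and 469 in TAC SFA-EAA. The lowest TAC library was nearly double the highest sham library, and the pairs agreed closely except in sham SFA-EAA. The averaged log2 fold change was 1.55 (SE 0.10, adjusted p = 0.00056), with 1.69 under SFA and 1.40 under SFA-EAA. The reference start regions of both genes that passed in each diet, and of 2 genes with larger averaged effects, Nppa and Acta1, are shown from 250 bases before to 50 after the annotated start (RefSeq, GRCm38.p6; Nppb chr4:147985650-147985949, plus strand; Tnfrsf12a chr17:23677400-23677699, minus strand; Nppa chr4:148000472-148000771, plus strand; Acta1 chr8:123894726-123895025, minus strand). Capitals mark matches on either strand. The motifs marked are CATTCC for MCAT, AGATAA for the GATA factors, TATAAA for the TATA box, GGGCGG for the GC box, and the CArG box.
Nppb: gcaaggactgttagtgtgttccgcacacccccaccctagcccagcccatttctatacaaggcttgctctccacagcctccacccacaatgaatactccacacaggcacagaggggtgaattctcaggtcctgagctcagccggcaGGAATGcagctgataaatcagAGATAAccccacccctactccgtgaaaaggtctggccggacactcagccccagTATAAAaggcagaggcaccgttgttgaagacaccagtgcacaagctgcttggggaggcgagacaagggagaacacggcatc
Nppa: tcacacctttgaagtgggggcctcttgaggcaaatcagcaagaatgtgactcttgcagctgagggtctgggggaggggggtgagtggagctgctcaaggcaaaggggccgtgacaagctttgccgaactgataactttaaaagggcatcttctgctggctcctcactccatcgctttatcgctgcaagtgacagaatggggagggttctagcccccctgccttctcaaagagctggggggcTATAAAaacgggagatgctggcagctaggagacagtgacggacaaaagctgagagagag
Acta1: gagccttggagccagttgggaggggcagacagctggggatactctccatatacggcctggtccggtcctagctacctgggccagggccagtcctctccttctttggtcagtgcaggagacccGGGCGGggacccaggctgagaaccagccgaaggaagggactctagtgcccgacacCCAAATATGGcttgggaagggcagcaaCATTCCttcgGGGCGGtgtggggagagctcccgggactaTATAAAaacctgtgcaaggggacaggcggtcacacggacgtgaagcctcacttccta
Tnfrsf12a: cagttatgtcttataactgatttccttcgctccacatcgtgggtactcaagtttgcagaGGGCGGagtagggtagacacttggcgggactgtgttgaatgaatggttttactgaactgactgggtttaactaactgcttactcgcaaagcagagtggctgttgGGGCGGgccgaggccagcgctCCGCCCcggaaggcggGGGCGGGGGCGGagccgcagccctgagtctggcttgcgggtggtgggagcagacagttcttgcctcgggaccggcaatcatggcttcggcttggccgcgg

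Measured from the first base of the match to the start, Nppb had an MCAT match at -105, a GATA match at -84 and a TATA box at -31. Nppa had a TATA box at -9. Acta1 had a CArG box at -73, an MCAT match at -46, a TATA box at -7 and GC boxes at -128 and -36. Tnfrsf12a had 5 GC boxes and none of the other motifs. Promoters were matched for 170 of the 227 higher genes (214 promoters) and 88 of the 120 lower genes (112 promoters). The CArG box, the binding letters of serum response factor, was in 5.14% of the promoters of higher genes, 2.68% of those of lower genes, 1.36% of those of all genes tested and 1.63% of all 32851 promoters. The MCAT letters, bound by TEAD factors, were in 21.0%, 15.2%, 12.6% and 14.7% respectively. The TATA box was in 13.1%, 10.7%, 7.85% and 13.6%, the GC box in 56.1%, 46.4%, 58.5% and 35.7%, and the GATA letters in 6.07%, 11.6%, 6.89% and 11.2%. In the same order, the AP-1 letters TGANTCA were in 6.07%, 7.14%, 5.58% and 7.81%. The letters AAGGTCA, bound by ERR factors, were in 3.74%, 3.57%, 3.44% and 4.72%. A site for MEF2 factors was in 1.4%, 1.79%, 0.542% and 0.557%. These are counts of letters, for which no test was made.

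**Figure D3:**
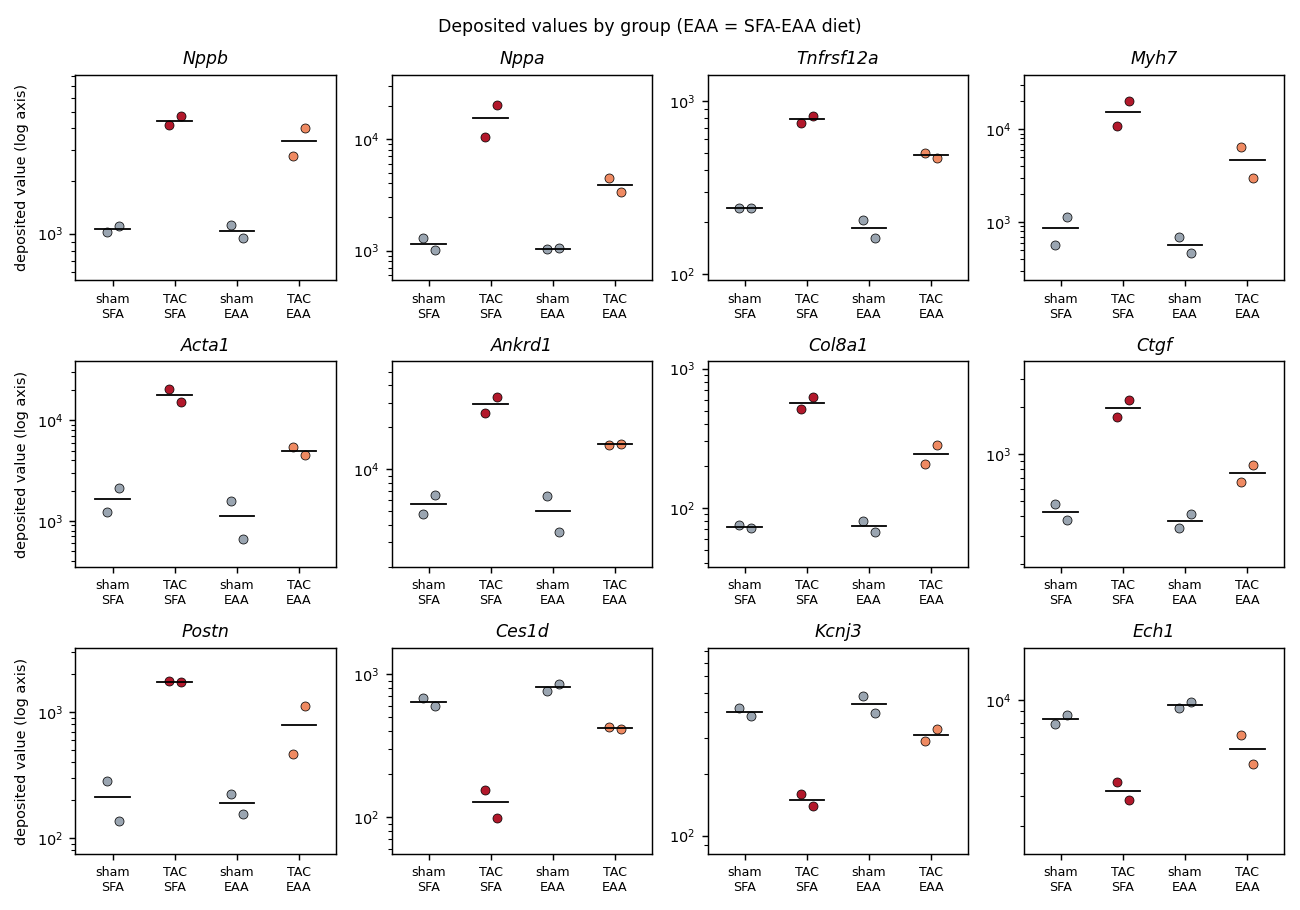
Deposited values of 12 genes in each library on log axes, with 2 points per group and a line at their mean; EAA stands for the SFA-EAA diet. In the first 9 panels both TAC groups lie above both sham groups, and in Ces1d, Kcnj3 and Ech1 both lie below.

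Contractile genes changed in a few members with large effects. Myh7, the slow myosin heavy chain of the fetal ventricle (chromosome 14, 54970688 to 54994634, minus strand), had values of 569.5 and 1143 in sham SFA, 686 and 461 in sham SFA-EAA, 10894 and 20121 in TAC SFA, and 6402 and 3016 in TAC SFA-EAA. Every TAC library exceeded every sham library, and the TAC SFA libraries were the highest. Its averaged log2 fold change was 3.58 (SE 0.31, adjusted p = 0.0017), with 4.20 under SFA and 2.96 under SFA-EAA. Acta1, skeletal muscle actin, had values of 1220.0 and 2106 in sham SFA, 1585 and 661 in sham SFA-EAA, 20280.1 and 15142 in TAC SFA, and 5475 and 4484 in TAC SFA-EAA. Again no TAC library overlapped a sham library, and the averaged log2 fold change was 2.86 (SE 0.27, adjusted p = 0.0026). Myh10, a non-muscle myosin, was at 160.2 to 314 after TAC against 131 to 183 after sham, so that the 4 libraries of each operation overlapped although those within a diet did not (0.56 (SE 0.12, adjusted p = 0.049)). These were 3 of the 12 fetal and slow sarcomere genes; none fell, the median was -0.15 (0.44 under SFA and -0.42 under SFA-EAA), and 2 of the 3 stayed called with any single library left out. The direction of Myh6, the adult isoform, was not fixed: 105843 and 107780.0 in sham SFA, 61544 and 75822 in sham SFA-EAA, 80930.4 and 101342 in TAC SFA, and 102083 and 51541 in TAC SFA-EAA, with an averaged log2 fold change of -0.08 (SE 0.23, adjusted p = 0.92) that was positive under quantile normalization (0.015) and without TAC SFA replicate 1 (0.0054) or TAC SFA-EAA replicate 2 (0.17). Of the 18 adult sarcomere genes 0 were called, with a median of 0.06 that was -0.02 after the GC correction, where 2 were higher and 1 lower.

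Genes of the Z-disc, the intercalated disc and mechanical stress leaned upward: 11 of 32 were higher (34.4%, all genes 1.38%) and 0 lower. A positive effect was seen in 31, Myoz1 (-0.03, adjusted p = 0.99 by limma) being the exception, which also turned positive in some alternatives. Their median log2 fold change was 0.43, against 0.01 over all genes tested. Ankrd1, a stretch-sensitive protein that binds titin, had values of 4776 and 6539.9 in sham SFA, 6419.7 and 3568 in sham SFA-EAA, 25397 and 33082 in TAC SFA, and 14949.9 and 15169 in TAC SFA-EAA. The lowest TAC library was more than double the highest sham library (2.01 (SE 0.19, adjusted p = 0.0026)). Xirp2, a protein that binds actin at the intercalated disc, was at 4853 to 9597 after TAC against 2419.7 to 3233 after sham (1.42 (SE 0.13, adjusted p = 0.002)), and Synpo2l, a Z-disc protein, at 1242 to 3434 after TAC against 569 to 875 after sham (1.45 (SE 0.12, adjusted p = 0.0015)). Both kept apart all 4 libraries of each operation. Nrap, which ties actin to the membrane at the end of the myofibril, was at 4039 to 6829.5 after TAC against 2628 to 3409 after sham (0.84), and Flnc, the muscle filamin, at 1406 to 3947 after TAC against 1097 to 1757 after sham (0.77). Sprr1a, a stress protein of hypertrophic hearts, was listed at 0 to 0.937 in sham libraries and at 1.41 to 42.1 in TAC libraries, levels so low that the log2 fold change of 3.10 depends on the pseudocount. In the leave-one-out fits 4, 4, 5, 4, 7, 4, 11 and 13 of the list were higher, and 16 after the GC correction.

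The cytoskeleton list gave 4 higher and 1 lower of 32 genes, with a median of 0.26. Enah, an actin-elongation factor, was at 728 to 1479 after TAC against 542 to 682 after sham (0.77 (SE 0.10, adjusted p = 0.0076)), the tubulin gene Tubb2a at 168 to 307 after TAC against 101 to 179.8 after sham (0.67) and Msn, a membrane-cytoskeleton linker, at 980.0 to 1369.5 after TAC against 780.5 to 858 after sham (0.50). Another tubulin gene, Tuba4a, went the other way, at 2314 to 2952 after TAC against 3726 to 4628 after sham (-0.64 (SE 0.09, adjusted p = 0.012)). Over the leave-one-out fits 0, 0, 0, 0, 1, 0, 4 and 4 members were higher. After the GC correction 5 were higher and 3 lower, and 3 to 7 stayed higher when a library was also left out.

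Collagen genes gave the largest share of calls of any list: 13 of 22 were higher (59.1%, all genes 1.38%) and 0 lower. Their median log2 fold change was 0.98 (1.35 under SFA and 0.72 under SFA-EAA). In 19 of the 22 the TAC libraries lay above the sham libraries within each diet (all genes 7.22%). Col8a1, a short-chain collagen of vessel walls (chromosome 16, 57624258 to 57754737, minus strand), had values of 75.2 and 71.2 in sham SFA, 80.7 and 67.3 in sham SFA-EAA, 511 and 630.2 in TAC SFA, and 205 and 284 in TAC SFA-EAA. Its 4 sham libraries differed by little, and the lowest TAC library was more than double the highest of them (2.32 (SE 0.14, adjusted p = 0.00056)). Col3a1, a main fibrillar collagen of the heart, had values of 1345 and 929.8 in sham SFA, 526 and 657 in sham SFA-EAA, 2762 and 3368 in TAC SFA, and 1014 and 1396 in TAC SFA-EAA. Each diet's pairs kept apart, but the TAC SFA-EAA libraries overlapped the sham SFA libraries (1.23 (SE 0.15, adjusted p = 0.0064)). Col1a2 was at 466 to 2579.9 after TAC against 310.2 to 735 after sham (1.09), the basement membrane collagen Col4a1 at 1866 to 4780.2 after TAC against 1223 to 2637 after sham (0.80) and Col12a1, which coats collagen fibrils, at 18.6 to 134 after TAC against 5.39 to 14.1 after sham (2.39). Col1a1, the partner chain of Col1a2, had an averaged log2 fold change of 1.17 (SE 0.28, adjusted p = 0.072), and passed the threshold after the GC correction (adjusted p = 0.0082). In bulk tissue more cells of a type and more RNA per cell cannot be told apart, and 5 of 16 fibroblast markers were higher: Pi16, Mfap5 and Serpinf1, and Col1a2 and Col3a1, which are collagens themselves. Of the 16 effects 3 were negative, and the summed level was 10740 to 25970 after TAC against 11130 to 15350 after sham, with TAC SFA-EAA replicate 2 the lowest of the 8 libraries. Their part in the result was not tested. When each library was left out 5, 2, 1, 1, 9, 1, 10 and 13 collagens were higher, and 17 after the GC correction.

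**Figure D4:**
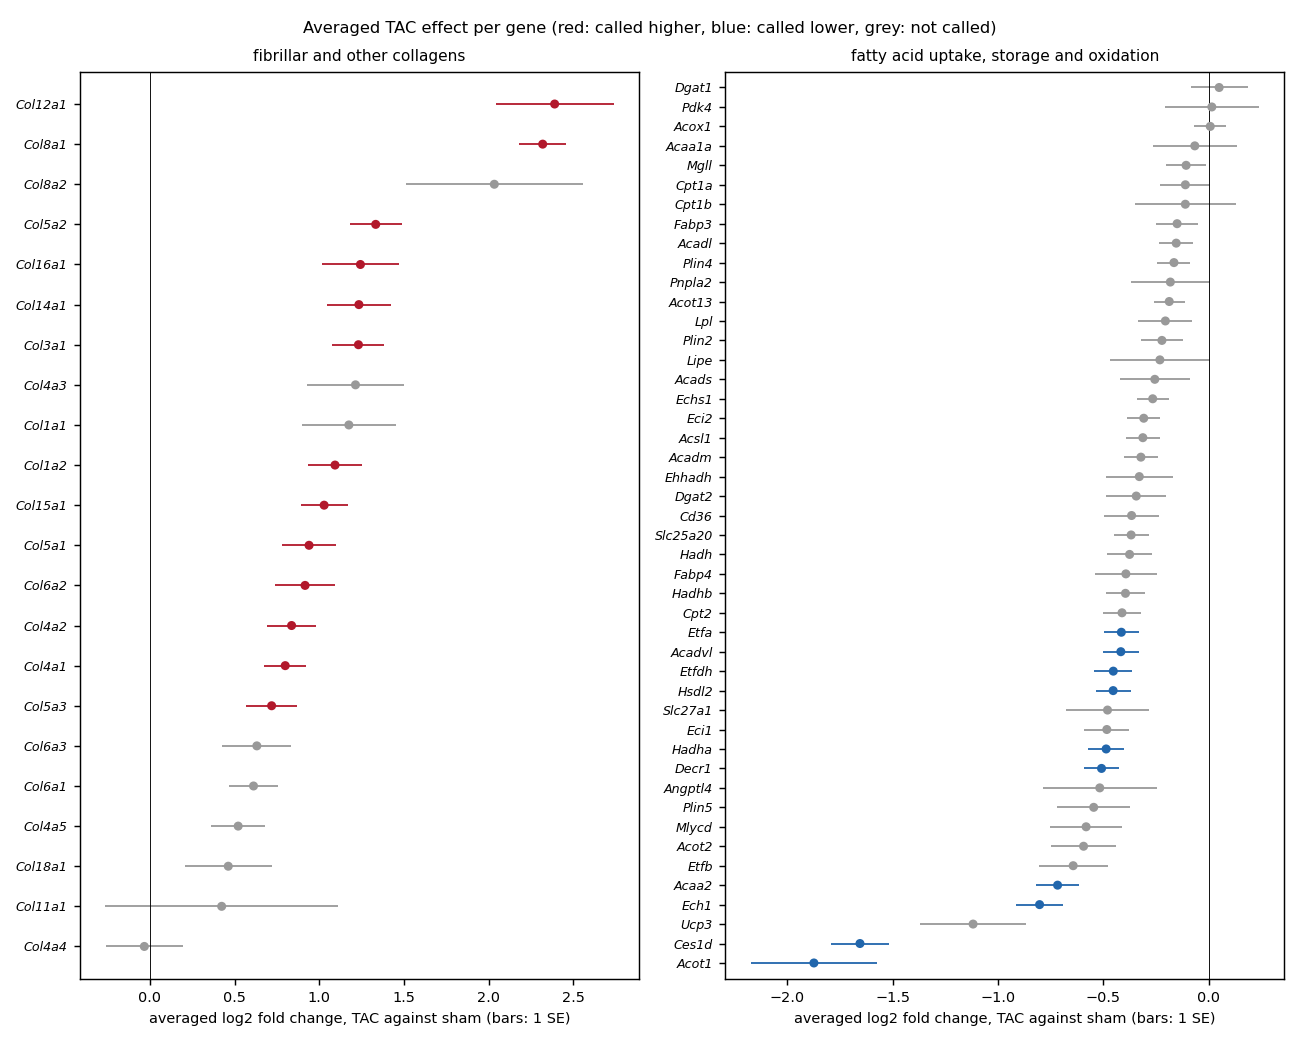
Averaged log2 fold change between TAC and sham, with bars of 1 SE, for the 22 collagen genes (left) and the 46 genes of fatty acid use (right); red and blue mark genes called higher and lower. The collagens lie to the right of 0 except Col4a4, and 43 of the 46 fatty acid genes lie to the left of it.

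Matricellular proteins, which sit in the matrix and signal to cells, gave 10 of 30 higher and 0 lower, with a median of 0.86. Ctgf, a growth factor of scar tissue, had values of 477 and 378 in sham SFA, 335 and 418 in sham SFA-EAA, 1725 and 2225 in TAC SFA, and 664 and 856 in TAC SFA-EAA. The TAC SFA libraries were highest, and the TAC SFA-EAA libraries still exceeded every sham library (1.61 (SE 0.14, adjusted p = 0.0015)). Postn, periostin of activated fibroblasts, had values of 284 and 136 in sham SFA, 224 and 155 in sham SFA-EAA, 1777 and 1727 in TAC SFA, and 463 and 1113 in TAC SFA-EAA. Its sham libraries ranged over 2-fold, as did the TAC SFA-EAA pair, without overlap (2.54 (SE 0.30, adjusted p = 0.0055)). Cilp, a matrix glycoprotein first known from cartilage, was at 122 to 1389.7 after TAC against 27.8 to 59.3 after sham (3.02 (SE 0.34, adjusted p = 0.0051)), and thrombospondin 4, Thbs4, at 64.6 to 913 after TAC against 18.3 to 44.2 after sham (2.63 (SE 0.35, adjusted p = 0.009)). In both, TAC SFA replicate 2 was the highest library by more than 2-fold, and Thbs4 had 4.04 under SFA and 1.23 under SFA-EAA. Cyr61, a relative of Ctgf, had near-equal effects of 0.90 under SFA and 1.03 under SFA-EAA (0.96 (SE 0.11, adjusted p = 0.0056)). Tenascin C, Tnc, was at 14.4 to 44.3 after TAC against 2.59 to 6.92 after sham (2.13) and Sparc, a collagen-binding protein, at 1445 to 3691 after TAC against 935 to 1673 after sham (1.02). Across fits without a library 7, 3, 4, 1, 10, 1, 10 and 7 members were higher, and Postn and Cilp lost their calls without sham SFA-EAA replicate 2 and without TAC SFA replicate 2, Cilp also without sham SFA replicate 2.

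Of 20 genes for elastic fibres, microfibrils and proteoglycans 6 were higher and 0 lower (median 0.58). Fibrillin 1, Fbn1, the core of microfibrils, had values of 369.8 and 236 in sham SFA, 181 and 185 in sham SFA-EAA, 713 and 737 in TAC SFA, and 433 and 513 in TAC SFA-EAA, and nearly equal effects of 1.29 under SFA and 1.36 under SFA-EAA (1.33 (SE 0.14, adjusted p = 0.0039)). Mfap5, a microfibril protein, was at 166 to 486 after TAC against 70.2 to 102 after sham (1.85 (SE 0.17, adjusted p = 0.002)), and the proteoglycan Bgn at 1304 to 5062 after TAC against 747 to 1135 after sham (1.34 (SE 0.15, adjusted p = 0.0045)). Ltbp2, which binds fibrillin, was at 34.0 to 509.7 after TAC against 7.38 to 31.5 after sham (3.04), the largest rise of the list. Elastin, Eln, was at 136 to 846 after TAC against 99.1 to 189 after sham, with overlap between the operations but not within a diet (1.22 (SE 0.26, adjusted p = 0.049)). In the leave-one-out fits 4, 4, 5, 1, 5, 2, 4 and 5 were higher.

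Enzymes that process and crosslink collagen had positive effects in 19 of 19 genes, of which 5 were higher (median 0.54). Lysyl oxidase, Lox, which crosslinks collagen and elastin, had values of 17.0 and 16.4 in sham SFA, 37.1 and 27.3 in sham SFA-EAA, 101 and 172 in TAC SFA, and 48.3 and 63.4 in TAC SFA-EAA (1.84 (SE 0.22, adjusted p = 0.0056)). Its relative Loxl2 was at 81.2 to 205 after TAC against 44.7 to 60.9 after sham (1.46), the transglutaminase Tgm2 at 1653 to 2845 after TAC against 1388 to 1687 after sham (0.51), the procollagen proteinase Bmp1 at 94.2 to 186 after TAC against 52.4 to 101 after sham (0.78) and its enhancer Pcolce at 177 to 640.2 after TAC against 153 to 303 after sham (0.69). The last 3 overlapped between the operations but not within a diet. Over the leave-one-out fits 1, 0, 1, 0, 1, 0, 4 and 6 were higher, and 9 after the GC correction. Among 19 metalloproteinases and their inhibitors 5 were higher (median 0.49). These were Timp1, an inhibitor, at 36.0 to 137 after TAC against 9.61 to 27.3 after sham (2.11 (SE 0.28, adjusted p = 0.0083)), Adamts2, which trims procollagen, at 109 to 303 after TAC against 47.1 to 102 after sham (1.44 (SE 0.14, adjusted p = 0.0027)), Adamtsl2 at 64.9 to 421 after TAC against 38.0 to 80.8 after sham (1.82), the gelatinase Mmp2 at 246 to 855 after TAC against 174 to 264 after sham (0.95) and Adamts1 at 269.6 to 348 after TAC against 177 to 259.8 after sham (0.49). Adamts1 was the one of these with the larger effect under SFA-EAA (0.30 under SFA and 0.68 under SFA-EAA). When each library was left out 3, 3, 2, 1, 4, 1, 3 and 4 of them were higher.

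Secreted signals moved in single members. Of 27 TGF-beta family genes 3 were higher and 0 lower (median 0.32, with 0.55 under SFA and 0.03 under SFA-EAA). Tgfb2, one of the 3 ligands, had values of 24.9 and 25.7 in sham SFA, 34.1 and 38.9 in sham SFA-EAA, 116 and 157 in TAC SFA, and 47.3 and 49.9 in TAC SFA-EAA. It kept all TAC above all sham libraries by a narrow margin on the SFA-EAA diet (1.39 (SE 0.16, adjusted p = 0.0055), with 2.37 under SFA and 0.41 under SFA-EAA). Fstl1, a secreted follistatin-like protein, was at 595 to 1325 after TAC against 332 to 448 after sham (1.33). Across fits without a library 2, 1, 2, 0, 4, 0, 4 and 5 of this list were higher, and 7 after the GC correction. Of 34 growth factors and angiocrine signals 4 were higher and 1 lower (median 0.20, with 0.49 under SFA and -0.01 under SFA-EAA). Igfbp7, a secreted binding protein, had values of 632 and 606 in sham SFA, 429 and 431 in sham SFA-EAA, 1417 and 1524 in TAC SFA, and 752 and 772 in TAC SFA-EAA. Its replicates agreed within each group, and the TAC SFA libraries were about 2-fold above the TAC SFA-EAA libraries (1.03 (SE 0.07, adjusted p = 0.00066)). Endothelin 3, Edn3, was at 44.2 to 123 after TAC against 7.40 to 23.3 after sham (2.48 (SE 0.28, adjusted p = 0.0046)), Hbegf, an EGF-like growth factor, at 90.4 to 218 after TAC against 55.9 to 84.4 after sham (0.99) and Frzb, a secreted Wnt inhibitor, at 35.0 to 189.6 after TAC against 6.52 to 32.2 after sham (1.95). Angiopoietin 1, Angpt1, which steadies vessels, was the member that fell, at 74.0 to 142 after TAC against 192 to 245 after sham, with effects of -1.18 under SFA and -1.05 under SFA-EAA (-1.11 (SE 0.20, adjusted p = 0.03)). In the leave-one-out fits 2, 2, 2, 2, 3, 1, 3 and 3 of them were higher; the GC correction gave 7 higher and 5 lower.

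Inside the cell, Rcan1, a regulator and target of the calcineurin pathway of hypertrophy, had values of 584 and 453 in sham SFA, 427 and 369 in sham SFA-EAA, 1996 and 1805 in TAC SFA, and 594 and 872 in TAC SFA-EAA. All TAC libraries exceeded all sham libraries, by a narrow margin for TAC SFA-EAA replicate 1 over sham SFA replicate 1 (1.37 (SE 0.14, adjusted p = 0.0032)). Of the 28 calcineurin and other hypertrophic signalling genes 3 were higher and 0 lower (median 0.04); the others were Fhl1 and the kinase gene Mapk4, at 43.2 to 73.5 after TAC against 23.2 to 37.2 after sham (1.02). Over the leave-one-out fits 1, 1, 2, 1, 2, 1, 3 and 3 were higher. Of 21 renin-angiotensin and adrenergic genes 1 was higher (4.76%, all genes 1.38%): Ace, the angiotensin-converting enzyme, at 252 to 832 after TAC against 211 to 317 after sham (0.79 (SE 0.12, adjusted p = 0.015 by limma)). After the GC correction 2 of this list were higher and 3 lower. Immediate early genes, which answer stimuli within minutes, gave 5 of 21 higher and 0 lower (median 0.40). Atf3 was at 61.7 to 94.4 after TAC against 20.2 to 40.6 after sham (1.27 (SE 0.17, adjusted p = 0.0081)) with 0.72 under SFA and 1.83 under SFA-EAA, Ier5 at 206 to 265 after TAC against 92.0 to 149 after sham (0.89), Nr4a3 at 37.1 to 57.9 after TAC against 9.05 to 21.1 after sham (1.46), Btg2 at 211 to 289.6 after TAC against 147 to 192 after sham (0.52) and Egr2, near the detection limit, at 3.81 to 28.1 after TAC against 0.0845 to 2.58 after sham (2.15). When each library was left out 0, 0, 1, 1, 2, 0, 2 and 3 of them were higher. Uck2, a kinase of the pyrimidine salvage pathway, is on none of the lists and had values of 216 and 192 in sham SFA, 166 and 144 in sham SFA-EAA, 621 and 569.8 in TAC SFA, and 268 and 257 in TAC SFA-EAA. The TAC SFA-EAA libraries lay just above the highest sham library (1.15 (SE 0.10, adjusted p = 0.0015)).

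Most ion channel genes that passed the test were lower. Of 34 potassium, sodium and pacemaker channel and connexin genes 5 were lower and 1 higher, with a median of -0.20 (-0.44 under SFA and -0.01 under SFA-EAA). Kcnj3, a subunit of the acetylcholine-gated potassium channel, had values of 418 and 385 in sham SFA, 483 and 397 in sham SFA-EAA, 160.4 and 139 in TAC SFA, and 291 and 332 in TAC SFA-EAA. The TAC SFA libraries were well below, and the TAC SFA-EAA libraries lay between them and the sham libraries (-0.96 (SE 0.11, adjusted p = 0.0045)). Kcnd2 and Kcnip2 encode a pore and a helper subunit of the transient outward potassium current; Kcnd2 was at 26.1 to 99.3 after TAC against 67.8 to 126 after sham (-1.06) and Kcnip2 at 589.7 to 759 after TAC against 815 to 1027 after sham (-0.52 (SE 0.09, adjusted p = 0.025)). Kcnv2, a silent potassium channel subunit, was at 7.45 to 44.0 after TAC against 43.8 to 72.4 after sham (-1.51), and Abcc9, the sulfonylurea receptor of ATP-gated channels, at 1139 to 1746 after TAC against 1746 to 2162 after sham (-0.45). Across fits without a library 1, 1, 1, 1, 2, 0, 5 and 5 were lower, and 11 after the GC correction. Calcium handling genes of the sarcoplasmic reticulum gave 0 calls among 24 (median -0.03), and 3 lower after the GC correction. Atp2a2, the calcium pump SERCA2, was at 52431 to 66916 after TAC against 75722 to 81151 after sham, which did not overlap, yet with an averaged log2 fold change of -0.40 (SE 0.13) its adjusted p was 0.19 by limma.

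Genes for the uptake, storage and oxidation of fatty acids gave 10 of 46 lower (21.7%, all genes 0.73%) and 0 higher. Negative effects were seen in 43, with a list median of -0.37 (-0.48 under SFA and -0.28 under SFA-EAA). In 24 of the 46 the TAC libraries lay below the sham libraries within both diets (all genes 6.41%). Ces1d, a carboxylesterase that cleaves stored lipid (chromosome 8, 93166068 to 93197838, minus strand), had values of 687 and 602 in sham SFA, 769 and 853 in sham SFA-EAA, 155 and 99.2 in TAC SFA, and 426 and 416 in TAC SFA-EAA. It kept all TAC below all sham libraries, with the TAC SFA libraries lowest (-1.65 (SE 0.14, adjusted p = 0.0015)), though it is one of a family of near-identical genes between which reads may have been shared. Ech1, a mitochondrial enzyme for unsaturated fatty acids, had values of 7986 and 8695 in sham SFA, 9306 and 9802 in sham SFA-EAA, 4558 and 3856 in TAC SFA, and 7140.2 and 5443 in TAC SFA-EAA. Its effects were -0.99 under SFA and -0.62 under SFA-EAA (-0.80 (SE 0.11, adjusted p = 0.01)). The thiolase Acaa2 was at 2668 to 4967 after TAC against 5295 to 6111 after sham (-0.72), the reductase Decr1 at 1652 to 2748 after TAC against 2661 to 3746 after sham (-0.51), and Hadha, part of the trifunctional protein, at 5455 to 6979 after TAC against 8025 to 8956 after sham (-0.49). Acadvl, the very long chain acyl-CoA dehydrogenase, was at 4788 to 6697 after TAC against 7095 to 7828 after sham (-0.42). Etfa and Etfdh, which pass electrons from these dehydrogenases to the respiratory chain, had averaged log2 fold changes of -0.42 and -0.45, and Hsdl2 had -0.45. Acot1, a thioesterase with near-identical neighbours, was at 7.60 to 33.7 after TAC against 39.4 to 68.9 after sham (-1.87). In the leave-one-out fits 1, 1, 1, 1, 4, 1, 23 and 13 were lower, and 28 after the GC correction.

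Other mitochondrial lists leaned the same way with small effects. Nuclear-encoded genes of oxidative phosphorylation had negative effects in 73 of 74 and under both diets in 66, with a median of -0.29, but 5 passed the test. Cox7a1, the heart and muscle isoform of a cytochrome oxidase subunit, had values of 3347 and 3392 in sham SFA, 3437 and 3922 in sham SFA-EAA, 2118 and 1871 in TAC SFA, and 3059 and 2383 in TAC SFA-EAA, with -0.76 under SFA and -0.44 under SFA-EAA (-0.60 (SE 0.10, adjusted p = 0.025)). Its relatives Cox7a2 (-0.41) and Cox7b (-0.50), the complex I gene Ndufv2 (-0.43) and the ATP synthase gene Atp5l (-0.55) were the others. Over the leave-one-out fits 0, 0, 0, 0, 1, 0, 35 and 5 of these genes were lower, and 42 after the GC correction. The 13 mitochondrially encoded genes gave 0 calls (median -0.19). Of 31 genes of the tricarboxylic acid cycle and pyruvate entry 3 were lower, with 29 negative and a median of -0.24. Sdhc, a subunit of succinate dehydrogenase, was at 1732 to 2259 after TAC against 2518 to 2589.7 after sham (-0.39), Suclg1, of succinyl-CoA ligase, at 1521 to 2260.4 after TAC against 2199.5 to 2767 after sham (-0.42), and Pdp2, a phosphatase that switches pyruvate dehydrogenase on, at 84.3 to 113 after TAC against 135 to 191 after sham (-0.66). When each library was left out 0, 0, 0, 0, 0, 0, 5 and 5 of these were lower, and 15 after the GC correction. Ppargc1a, the coactivator of mitochondrial genes, had -0.22 (adjusted p = 0.52 by limma), and 0 of the 18 genes of its regulator list were called (1 higher and 3 lower after the GC correction).

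Amino acid, ketone and sugar genes split. The list of branched-chain amino acid breakdown held 25 genes, among them the ketone body gene Bdh1. Of these 3 were lower and 1 higher, with 23 negative effects and a median of -0.28. The lower ones were Ppm1k, the phosphatase that activates the pathway's main dehydrogenase, at 290.3 to 557 after TAC against 447 to 639 after sham (-0.53), Aldh6a1 at 764 to 1487 after TAC against 1140.1 to 1734 after sham (-0.42) and Hsd17b10 at 434 to 686 after TAC against 655 to 833 after sham (-0.45); the leave-one-out fits gave 0, 0, 0, 0, 1, 0, 5 and 4 lower, and the GC correction 13. The member that rose, Bdh1, is the mitochondrial enzyme that interconverts the ketone bodies. Its values were 724 and 649.9 in sham SFA, 628 and 749 in sham SFA-EAA, 1477 and 1293 in TAC SFA, and 1079 and 1069 in TAC SFA-EAA. No TAC library overlapped a sham library on either diet (0.83 (SE 0.09, adjusted p = 0.0045)), and Bdh1 stayed called with any library left out. Of 35 genes of glucose uptake, glycolysis and glycogen 1 was higher and 1 lower (2.86% each, all genes 1.38% and 0.73%). The median was 0.01 and fell below 0 under quantile scaling, median-of-ratios scaling and the GC correction (-0.01, with 2 higher and 3 lower). Pfkp, the platelet isoform of phosphofructokinase, was at 348 to 600.5 after TAC against 219.7 to 266 after sham (0.85 (SE 0.11, adjusted p = 0.0064)). Pfkfb1, which sets the level of its activator, was at 7.32 to 33.8 after TAC against 59.4 to 94.6 after sham (-1.85 (SE 0.28, adjusted p = 0.014)).

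**Figure D5:**
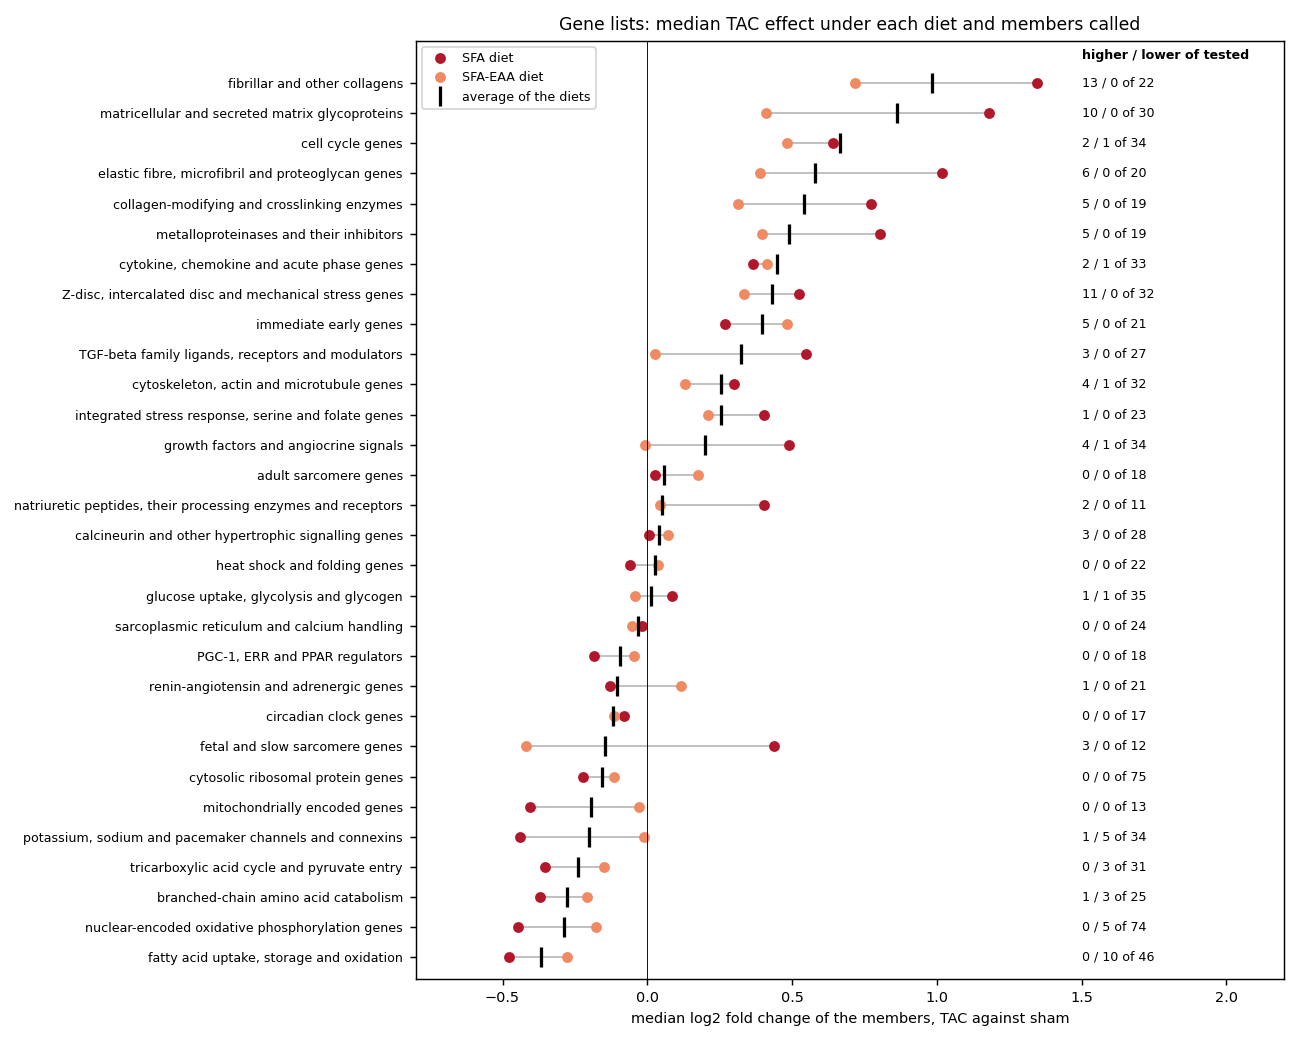
Median log2 fold change between TAC and sham of the members of 30 gene lists under SFA (red), under SFA-EAA (orange) and averaged (black bar), with the members called higher and lower among those tested at the right. Collagens lie highest, at 0.98, and genes of fatty acid use lowest, at -0.37.

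Several lists held few or no calls. Heat shock and folding genes (22, median 0.03), circadian clock genes (17, median -0.12) and cytosolic ribosomal protein genes (75, median -0.16, 68 negative) had 0 called. After the GC correction 14 ribosomal protein genes and 1 clock gene were lower, and 2 heat shock and folding genes were higher and 2 lower. Of 34 cell cycle genes 2 were higher and 1 lower, but 30 had positive effects, 24 of them under both diets (median 0.66). Ccnd2, a cyclin of early cell cycle entry, was at 827 to 1315 after TAC against 575 to 761 after sham (0.60 (SE 0.09, adjusted p = 0.012)), and Aurka, a mitotic kinase, at 3.12 to 11.4 after TAC against 0 to 1.82 after sham (2.30), where sham libraries were at or near 0. Cenpf, a mitotic protein also found at microtubules of muscle cells, went down, at 15.2 to 94.0 after TAC against 124 to 169 after sham (-1.81 (SE 0.22, adjusted p = 0.0061)). Of 33 cytokine, chemokine and acute phase genes 2 were higher and 1 lower, and 28 had positive effects, 20 of them under both diets (median 0.45). The complement gene C4b was at 140.2 to 326 after TAC against 38.2 to 144 after sham (1.20). The acute phase gene Serpina3n, one of a family of close copies, was at 84.3 to 277 after TAC against 30.0 to 70.8 after sham (1.46). The eosinophil chemokine Ccl11 was lower, at 0.691 to 10.2 after TAC against 11.2 to 25.5 after sham (-1.83). The leave-one-out fits gave 0 to 1 higher in the cell cycle list and 0 to 2 in the cytokine list.

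Markers of cell types were read as RNA levels, in which more cells of a type and more RNA per cell cannot be told apart. Macrophage markers had 13 of 17 genes without overlap upward within both diets (all genes 7.22%), and 2 passed the test (11.8%, all genes 1.38%). These were C1qb, of complement C1q, at 235 to 348 after TAC against 134 to 234 after sham (0.75 (SE 0.11, adjusted p = 0.011 by limma)), and the receptor gene Fcgr1 at 16.4 to 23.9 after TAC against 5.05 to 10.4 after sham (1.35). Their effects were nearly equal under the diets, with 1.33 under SFA and 1.37 under SFA-EAA for Fcgr1. The list's summed level was 2087 to 2734 after TAC against 1520 to 2090 after sham, its median log2 fold change was 0.68, and 0 to 2 members were higher with single libraries left out, and 7 after the GC correction. No call was made among 10 cardiomyocyte, 18 endothelial, 14 lymphocyte and granulocyte, 9 mesothelial and epicardial, 7 adipocyte and 7 erythroid markers; the median of the cardiomyocyte markers was -0.10 and turned to 0.06 under quantile normalization. After the GC correction 2 cardiomyocyte markers and 1 endothelial marker were lower. Adipocyte markers had the lowest median of the marker lists, -1.25 (-0.53 under SFA and -1.87 under SFA-EAA), with 6 of 7 negative under both diets and none of them without overlap in both. Their summed level, 77.7% of it from Cidea, was 114.8 to 232.7 after TAC against 128.9 to 233.6 after sham. Erythroid markers were positive in 7 of 7 (median 0.41), and 5 were higher without TAC SFA-EAA replicate 2. Few members were called in 3 lists: the atrial marker Sbk3 was lower (22.2 to 27.6 after TAC against 48.3 to 131 after sham), the smooth muscle and pericyte marker Abcc9 was lower, and of the Schwann cell and nerve markers 1 was lower and 1, Prnp, widely expressed, higher (809 to 1182 after TAC against 553 to 747 after sham). The Schwann cell and nerve list had a median of -0.90, with 8 of 12 negative under both diets and 5 without overlap downward in both (all genes 6.41%). Its summed level, 67.2% of it from Prnp, was 1097 to 1687 after TAC against 912.1 to 1178 after sham. After the GC correction 3 of the list were lower, as were 3 of 10 atrial markers. Of 14 smooth muscle and pericyte markers 2 were then higher and 2 lower.

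Transcripts of liver cells were among the largest rises. Alb, serum albumin, had values of 0 and 0.227 in sham SFA, 12.3 and 1.02 in sham SFA-EAA, 19.7 and 74.6 in TAC SFA, and 277 and 28.1 in TAC SFA-EAA. TAC SFA-EAA replicate 1 held by far the most, and sham SFA-EAA replicate 1 more than the other sham libraries (4.64 (SE 0.81, adjusted p = 0.027)). Hpx, hemopexin, was at 2.81 to 25.5 after TAC against 0 to 0.599 after sham, and Serpina1b, one of several near-identical antitrypsin genes, at 3.76 to 12.2 after TAC against 0 to 1.38 after sham. These were 3 of 20 hepatocyte markers, a list added after Alb had been seen; 18 had positive effects, and their summed level was 93.0 to 657 after TAC and 46.7 to 117 after sham. Among the leave-one-out fits Alb stayed called only without TAC SFA-EAA replicate 2 (adjusted p = 0.033; 0.059 to 0.18 in the other 7 fits), and 0 to 4 of the 20 were higher. The part of liver transcripts in these values was not tested.

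Among the 15 largest rises were further genes of low level. Star, which brings cholesterol into mitochondria for steroid synthesis, had values of 1.64 and 1.79 in sham SFA, 4.80 and 2.49 in sham SFA-EAA, 41.8 and 61.5 in TAC SFA, and 9.29 and 12.3 in TAC SFA-EAA. No TAC library overlapped a sham library (2.81 (SE 0.31, adjusted p = 0.0045)), and the call was lost without TAC SFA replicate 2. Mgat5b, a glycosyltransferase, was at 7.19 to 32.7 after TAC against 0.0845 to 4.58 after sham (2.60), and Serpinb1c, which has close copies, at 4.06 to 21.8 after TAC against 0.0446 to 2.31 after sham (2.44).

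The largest falls included signalling peptides and receptors at low levels. Penk, the precursor of enkephalin peptides, had values of 51.2 and 50.7 in sham SFA, 29.4 and 37.6 in sham SFA-EAA, 7.58 and 11.3 in TAC SFA, and 9.22 and 7.23 in TAC SFA-EAA. Its fall was of like size on both diets (-2.34 under SFA and -1.90 under SFA-EAA), all 4 TAC libraries lay below all sham libraries (-2.12 (SE 0.23, adjusted p = 0.0045)), and the call was lost without sham SFA-EAA replicate 2. Nmb, neuromedin B, was at 0.664 to 3.85 after TAC against 13.8 to 19.3 after sham (-2.47 (SE 0.39, adjusted p = 0.017)), with -2.51 under SFA and -2.44 under SFA-EAA. Chrna2, a nicotinic receptor subunit, was at 0 to 2.87 after TAC against 8.60 to 10.5 after sham (-2.23), Rgs7, a brake on G protein signals, at 0.91 to 4.81 after TAC against 6.40 to 15.1 after sham (-1.86), and Aqp4, a water channel, at 3.06 to 10.2 after TAC against 14.7 to 42.4 after sham (-1.87). In each of these the libraries of the 2 operations stood apart. Retnla, a marker of alternatively activated macrophages, was at 0.932 to 9.20 after TAC against 9.61 to 37.0 after sham, with -3.57 under SFA and -0.57 under SFA-EAA, and its TAC SFA-EAA replicate 2 at 9.20 was close to the lowest sham library. Ubxn10 was at 2.74 to 13.3 after TAC against 22.4 to 30.1 after sham (-1.63). Ano10, a member of the anoctamin family, was lower at a higher level, with values of 269 and 278 in sham SFA, 351 and 343 in sham SFA-EAA, 111 and 128 in TAC SFA, and 179 and 136 in TAC SFA-EAA. The effects of -1.19 under SFA and -1.15 under SFA-EAA were nearly equal (-1.17 (SE 0.11, adjusted p = 0.0029)).

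In 7 called genes the SFA-EAA libraries overlapped, and the average was carried by the SFA diet. Smaller effects under SFA-EAA were found far more widely, in 187 of the 227 higher and 106 of the 120 lower genes (all genes 54.7%). Retnla, without overlap, had -3.57 under SFA and -0.57 under SFA-EAA, and Thbs4 had 4.04 and 1.23. Absence of overlap in the other called genes therefore does not show a change under SFA-EAA that passes a test, which 2 genes did there. Hopx had values of 1532 and 1576 in sham SFA, 1049.8 and 1036 in sham SFA-EAA, 754 and 675 in TAC SFA, and 1232 and 949 in TAC SFA-EAA. The TAC SFA libraries were the lowest, whereas the TAC SFA-EAA libraries lay on both sides of their sham pair, giving -1.12 under SFA and 0.05 under SFA-EAA and an average of -0.53 (SE 0.10, adjusted p = 0.03). Fhl1, a LIM protein of the sarcomere, had 1.54 under SFA and 0.24 under SFA-EAA. Krt80, a keratin, had 2.57 under SFA and 0.07 under SFA-EAA, Cyp1b1, a cytochrome P450, 1.43 under SFA and 0.06 under SFA-EAA, Bcl2, an inhibitor of cell death, 1.42 under SFA and 0.15 under SFA-EAA, and Sulf1, which trims heparan sulfate, 1.30 under SFA and 0.29 under SFA-EAA. No difference between the diets passed the test for any of these 7 (adjusted p 0.70 to 0.85 by limma), and with 2 libraries per group a shared change of smaller size under SFA-EAA cannot be told from its absence.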

How the data were processed

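Per the labels' protocols, libraries came from a stranded mRNA kit and were read on a NextSeq 500. Per the submitters' processing notes, STAR 2.5 was the authors' aligner, GRCm38 the build and edgeR the tool of normalization. How reads were counted, with which strand setting and filter, is not given in the sources used here; genes that overlap or have near copies may therefore share reads. The deposited table holds, per gene and library, a signal normalized by the authors that is neither whole nor scaled to a fixed total, so the test for normalized values was used and no test for whole counts. These values summed to 5136441 to 6298743 per library; the depth in reads is unknown.

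The table lists 49671 genes, 29103 of them at 0 throughout. The 16432 genes that reached 1 in 2 or more libraries were fitted on log2(value + 1) by limma-trend (limma 3.58.1, R 4.3.3), with a mean per group and a shared spread. Fold changes on this scale understate low genes. All were two-sided, adjusted by Benjamini-Hochberg over these genes, with 0.05 as the threshold. A gene passed in each diet when the larger of its within-diet p-values, for effects of equal sign, passed this adjustment. A call of no overlap within either diet compares 2 with 2 libraries in each diet.

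Alternatives were an additive model, library weights, median-of-ratios or quantile scaling, the replicate number as a block, looser and stricter filters, 0.25 as pseudocount, a fold of at least 1.5 (limma treat), a loess correction for GC content (span 0.3; GC content known for 99.77% of genes) that took no residual degrees of freedom, each library left out, and both libraries high in Myl7 left out. The GC correction combined with leaving out libraries was chosen after seeing the data. A fit without a library assumes that the lone library of its group varies like the others. Replicate numbers did not pair libraries: differences between replicates 1 and 2 correlated at -0.269 to 0.039 between groups.

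The comparison, the gene lists and the naming rule were chosen with earlier results of these data known. Genes named were the 15 largest rises and 15 largest falls among called genes whose mean was 5 or more, with equal signs and no overlap within either diet, up to 4 members per list with the smallest p-values, a panel of 20 genes and those past the test in each diet, and not every one is reported; members called beyond the 4, the genes that overlapped within a diet, those called whichever library was left out, and Corin, Npr1, Mme, Myoz1, Col4a4 and Myl7 were named after their values were seen. On simulated data for the averaged effect with 16432 genes, 14, 36, 47 and 50 of 50 genes each changed by 1.5-fold, 2-fold, 4-fold and 8-fold were recovered, with 10 false calls. The simulated noise was independent between genes and libraries, the fold was equal in both diets, and changed genes had a mean of 5 or more. Recovery and false calls in the real libraries, which have trends with GC content, may differ. Promoters came from RefSeq (GRCm38.p6), matched by gene symbol or identifier. Tables and figures used numpy 2.4.6, pandas 2.3.3 and matplotlib 3.10.9 under Python 3.11.15.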

Additional observations from a re-analysis of the deposited data

How the results depend on the processing

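The averaged effect kept its direction for every called gene fitted in each alternative (345 of the 347 under the filter of 5 in 2 libraries, all 347 elsewhere), while the number called did not hold. Testing every gene above 0 gave 34 higher and 22 lower genes, 55 of one direction under both diets. The replicate block gave 115 higher, 32 lower, 147 of one direction and 0 past the test in each diet, though the numbers do not pair the libraries. A fold of at least 1.5 left 17 and 2. The GC correction gave 434 higher, 612 lower, 1034 of one direction and 16 past the test in each diet. Without both libraries high in Myl7 all 4 counts were 0. Leaving out single libraries gave 19 to 254 higher, 4 to 314 lower, 24 to 562 of one direction and 0 past the test in each diet. With the GC correction and a library left out, in the order of the report, 283, 179, 232, 215, 404, 246, 471 and 358 genes were higher and 264, 159, 228, 188, 586, 272, 720 and 513 lower. Of one direction were 544, 338, 459, 403, 966, 512, 1184 and 842, and 8, 6, 9, 2, 6, 7, 17 and 3 passed in each diet. There the difference between the diets was called for 14 genes without TAC SFA replicate 1, 34 without TAC SFA-EAA replicate 2 and 0 otherwise. A pseudocount of 0.25, testing every gene above 0, quantile normalization and library weights also gave 0 past the test in each diet. The causes of these shifts were not tested. The other scalings and filters gave 181 to 282 higher and 94 to 173 lower genes.

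Of 3590 values for 133 named genes under the alternatives, 2495 kept direction and side of the threshold, 1063 missed it, 18 newly passed it and 14 changed sign, all of them of 3 genes that were not called. Myh6 lay at 0.015 under quantile normalization and at -0.32 to 0.17 with libraries left out. Myoz1 lay at 0.18 under quantile normalization, at -0.50 to 0.45 with libraries left out, and with the GC correction at 0.18 without sham SFA-EAA replicate 2 and 0.38 without TAC SFA-EAA replicate 2. Col4a4 lay at -0.26 to 0.19 with libraries left out, and with the GC correction at 0.013 without sham SFA-EAA replicate 1 and 0.15 without TAC SFA-EAA replicate 1. With 2 libraries per group the simulated 1.5-fold changes were recovered in 14 of 50 genes. The simulated libraries had no trend with GC content and none that stood out, so how many small shared changes are missed here is unknown.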
